A study of Homo sapiens with 22 samples.

Results

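SEL1L3, RGS16, KIF21B, TREML2 and CYFIP2 are 5 of the 20411 protein-coding genes quantified by RNA-seq in MOLM-13 and NB4 cells. They were selected on their RPKM with FP54 and with DMSO, because their mRNA was lower with FP54 in MOLM-13 cells and higher with FP54 in NB4 cells, so the changes described here are the values that chose them and were not tested. FP54 is a proteolysis-targeting chimera that brings the RNA demethylase FTO to a ubiquitin ligase for destruction. MOLM-13 and NB4 are wild-type human acute myeloid leukemia (AML) cell lines. MOLM-13 is a monocytic line that carries a KMT2A fusion and an internal duplication in FLT3, and NB4 is a promyelocytic line that carries the PML-RARA fusion. Each line was exposed to 2 μM FP54 or to the DMSO vehicle alone for 48 hours, and 3 libraries were sequenced per line and treatment. The 12 RNA-seq libraries of the 22 samples in the series were used, and the others were not analysed here. Nothing in the labels ties a library to a separate culture, so p-values measure the spread between these libraries, which may be technical.

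The 5 genes act in separate places in the cell. SEL1L3 is a membrane protein with Sel1-type repeats and a relative of SEL1L, the partner of the ubiquitin ligase HRD1 that sends misfolded proteins of the endoplasmic reticulum to the proteasome. RGS16 is a GTPase-activating protein that shortens signalling by G proteins of the Gi and Gq classes. KIF21B is a kinesin motor of neurons and lymphocytes that walks along microtubules and limits their growth. TREML2 is a cell-surface receptor of the TREM family found on myeloid and B cells, and CYFIP2 is a subunit of the WAVE complex, through which the GTPase RAC1 starts branched actin growth. CYFIP2 was first described as a transcript induced by p53. None of the 5 was in the 36-gene list of ATF4 stress-response targets or in the 25-gene list of p53 targets used here, which is all that the description of these genes as outside the stress response rests on.

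Sequences upstream of the genes are shown because the 5 mRNAs moved in the same directions. RefSeq promoter entries on GRCh38.p14 were matched for 4 of the 5 genes, and the 250 bases before each annotated start were searched on both strands for 5 motifs. KIF21B was not matched. Capitals in the lines that follow mark the GC box, GGGCGG or its complement, and in TREML2 also the PU.1 core, GAGGAA. Each line holds the part of the window outside the GENCODE gene, 5′ to 3′ on the strand of the gene.
RGS16, chr1:182604390-182604639, minus strand: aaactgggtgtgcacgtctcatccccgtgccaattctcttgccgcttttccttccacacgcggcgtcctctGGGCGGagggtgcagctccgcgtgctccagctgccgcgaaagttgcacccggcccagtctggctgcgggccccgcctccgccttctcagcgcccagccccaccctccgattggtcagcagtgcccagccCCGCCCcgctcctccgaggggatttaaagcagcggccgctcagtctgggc
TREML2, chr6:41201150-41201399, minus strand: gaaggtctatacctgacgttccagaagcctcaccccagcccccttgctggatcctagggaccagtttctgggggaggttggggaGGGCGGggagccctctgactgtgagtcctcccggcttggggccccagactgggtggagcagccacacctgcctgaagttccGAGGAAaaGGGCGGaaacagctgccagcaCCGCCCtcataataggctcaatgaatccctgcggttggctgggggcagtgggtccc
CYFIP2, chr5:157265873-157266078, plus strand: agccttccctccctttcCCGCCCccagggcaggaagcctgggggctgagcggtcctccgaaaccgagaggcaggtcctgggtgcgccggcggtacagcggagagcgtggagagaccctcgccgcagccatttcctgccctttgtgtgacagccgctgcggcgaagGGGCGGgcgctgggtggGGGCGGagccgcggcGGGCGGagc

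The windows differed in their motifs. RGS16 held 2 GC boxes, TREML2 held 3, and the upstream of the 2 annotated starts of CYFIP2 held 5, of which 4 lie in the printed stretch. SEL1L3 also has 2 annotated starts, and its GC boxes were 0 before the upstream start and 3 before the other. GC boxes are common, since 42.6% of 35116 promoter windows of the same length held at least 1. The PU.1 core, the letters bound by a master transcription factor of myeloid cells, was found in TREML2 alone of the matched genes, from base -85 to base -80 relative to the start, and 23.6% of all windows held it. None of the windows held the C/EBP-ATF response element TGATGNAA, the AP-1 site TGANTCA or the E-box CACGTG, which were present in 3.14%, 6.57% and 6.34% of all windows. These matches are letters in a window and not measured binding sites. The observed to expected ratio of CpG dinucleotides was 0.282 in TREML2, and 31.3% of all windows had a lower ratio. It was 0.778 in RGS16. At the upstream and the other start it was 0.572 and 0.812 in SEL1L3, and 0.845 and 0.122 in CYFIP2.

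The markers of the lines were split. HOXA9, a marker of KMT2A-rearranged leukemia, stood at 21.3 ± 2.14 RPKM (SD, n = 3) in MOLM-13 and 0.234 ± 0.0799 RPKM in NB4 cells with DMSO, and MPO, the myeloperoxidase of promyelocytes, at 16.1 ± 2.92 and 2170 ± 119 RPKM. The other 4 granule genes listed as promyelocyte markers were higher in MOLM-13 than in NB4 cells with DMSO, ELANE at 186 and 0.150 RPKM, AZU1 at 174 and 9.96 RPKM, PRTN3 at 413 and 61.0 RPKM and CTSG at 116 and 58.5 RPKM, so this list did not mark NB4 cells as a whole. Of the 5 MOLM-13 markers HOXA10 was the higher in NB4 cells, at 7.30 and 13.2 RPKM. RPKM is the number of reads scaled by transcript length and by the total of the library. Of 8 markers of other cell types, 7 were below 1 RPKM on average in every group, and EPCAM was at 8.15 ± 0.389 RPKM in NB4 cells with DMSO and 9.71 ± 1.56 RPKM with FP54. The summed level of these 8 markers ranged in MOLM-13 cells between 0.792 and 1.07 RPKM (DMSO) and between 0.629 and 1.34 RPKM (FP54), and in NB4 cells between 8.04 and 8.83 RPKM (DMSO) and between 8.93 and 12.1 RPKM (FP54), and HBB was at 0 in every library of the other groups than NB4 with FP54. The summed level of 5 promyelocyte markers fell with FP54 in NB4 cells, from a range of 2150 to 2411 RPKM to 1115 to 1183 RPKM, and that of 5 myeloid markers rose in MOLM-13 cells, from 941 to 996 RPKM to 1250 to 1427 RPKM. The first sum was mostly MPO. In the second, CD68 went from 192 to 418 RPKM and was the 1 of 5 genes called in MOLM-13 cells, LYZ stood at 489 ± 36.1 and 602 ± 142 RPKM, and CEBPA at 98.8 and 98.4 RPKM. The myeloid sum in NB4 cells ranged from 165 to 194 RPKM with DMSO and from 149 to 170 RPKM with FP54. The promyelocyte sum in NB4 and the myeloid sum in MOLM-13 moved with the treatment that defines the changes of the 5 genes. Their part in those changes was not tested. Reads on genes ranged from 5836560 to 22349822 per library, with the fewest in FP54 replicate 2 of MOLM-13 cells. FTO mRNA averaged 1.01 ± 0.0767 RPKM with DMSO and 1.01 ± 0.118 RPKM with FP54 in MOLM-13 cells, and 2.73 ± 0.180 and 2.03 ± 0.0782 RPKM in NB4 cells. FP54 acts on the protein, so this mRNA does not check the treatment. The RNA came from whole cultures, so a lower share of a kind of cell and less RNA per cell cannot be told apart.

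SEL1L3 (ENSG00000091490.11, chr4:25747433-25863760 on hg38, minus strand) had the widest gap between the lines. Its level in MOLM-13 cells was 15.3, 12.2 and 14.7 RPKM in DMSO replicates 1 to 3 and 8.0, 10.0 and 9.15 RPKM in FP54 replicates 1 to 3. In NB4 cells it was 0.835, 0.690 and 0.676 RPKM with DMSO and 4.59, 4.20 and 4.14 RPKM with FP54. The treatments did not overlap in either line, and every NB4 library lay below every MOLM-13 library. The mean with FP54 was 64.4% of that with DMSO in MOLM-13 cells and 5.88-fold that with DMSO in NB4 cells. The start of SEL1L3 overlaps SMIM20 on the opposite strand, and whether counting used strand is not stated. SMIM20 did not pass the test in MOLM-13 cells (log2 fold change 0.38 ± 0.14 SE, adjusted p = 0.0802) or reach the fold limit in NB4 cells (0.25 ± 0.09, adjusted p = 0.0484).

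RGS16 (ENSG00000143333.7, chr1:182598623-182604389, minus strand), with the 2 GC boxes shown above, was the most abundant of the 5 per unit length in every group. In MOLM-13 cells it was at 135, 112 and 136 RPKM with DMSO and at 61.8, 69.0 and 74.0 RPKM with FP54. In NB4 cells it was at 23.2, 23.8 and 22.0 RPKM with DMSO and at 63.0, 63.4 and 55.8 RPKM with FP54. The DMSO levels differed between the lines by 5.55-fold, and the FP54 libraries of the lines overlapped. With DMSO, the mean in MOLM-13 cells was above that of 98.8% of all genes in the table.

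KIF21B (ENSG00000116852.15, chr1:200969390-201023714, minus strand) was measured in MOLM-13 cells at 9.58, 8.78 and 9.32 RPKM with DMSO and at 3.51, 4.57 and 4.83 RPKM with FP54. In NB4 cells its values were 5.52, 4.28 and 4.38 RPKM with DMSO and 15.5, 15.7 and 14.4 RPKM with FP54. The lines exchanged places, since MOLM-13 was the higher line with DMSO and NB4 the higher line with FP54, in every library. With FP54 the mean was 46.6% of that with DMSO in MOLM-13 cells and 3.22-fold in NB4 cells.

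TREML2 (ENSG00000112195.9, chr6:41189749-41201149, minus strand), whose window held the PU.1 core, stood in MOLM-13 cells at 2.51, 3.32 and 2.57 RPKM with DMSO and at 1.57, 1.63 and 1.25 RPKM with FP54. In NB4 cells it stood at 2.28, 2.07 and 1.82 RPKM with DMSO and at 8.68, 9.17 and 8.35 RPKM with FP54. The lines differed by 1.36-fold with DMSO, MOLM-13 being the higher, and by 5.88-fold with FP54, NB4 being the higher. In MOLM-13 cells its values rested on the fewest reads of the 5 genes, 36 to 205 per library, whereas in NB4 cells with DMSO SEL1L3 had fewer, at 110 to 129 against 154 to 178 reads.

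CYFIP2 (ENSG00000055163.21, chr5:157266079-157395595, plus strand) was at 3.30, 2.9 and 2.48 RPKM with DMSO and at 1.35, 1.36 and 1.18 RPKM with FP54 in MOLM-13 cells. In NB4 cells it was at 2.64, 2.15 and 2.39 RPKM with DMSO and at 6.61, 6.11 and 6.79 RPKM with FP54. It was the only one of the 5 whose DMSO libraries overlapped between the lines, and with FP54 the mean was 5.01-fold higher in NB4 cells. FNDC9, inside CYFIP2 on the opposite strand, was listed at 0 in every library.

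**Figure D1:**
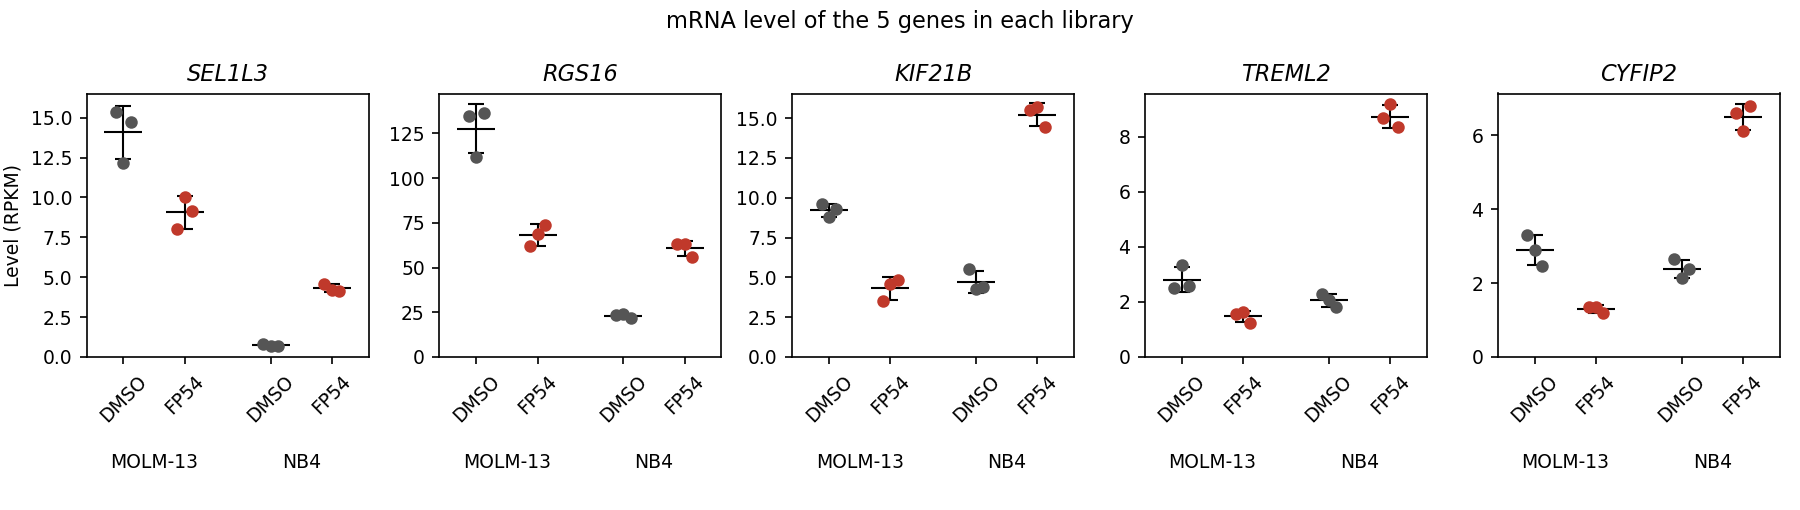
Level of each of the 5 genes in RPKM (vertical axes from 0, each panel on its own scale) in the 12 libraries, by cell line and treatment. Points are libraries, horizontal lines means and bars SD (n = 3). In every panel the FP54 points lie below the DMSO points in MOLM-13 and above them in NB4.

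The fitted changes, log2 of RPKM plus 0.1, were as follows and carry no test, because they chose the genes. In MOLM-13 cells SEL1L3 was at -0.63 ± 0.15 (SE), TREML2 at -0.87 ± 0.20, RGS16 at -0.90 ± 0.14, CYFIP2 at -1.09 ± 0.19 and KIF21B at -1.10 ± 0.16. In NB4 cells the order was different, with RGS16 at 1.39 ± 0.08, CYFIP2 at 1.41 ± 0.11, KIF21B at 1.67 ± 0.11, TREML2 at 2.04 ± 0.11 and SEL1L3 at 2.41 ± 0.13. SEL1L3 thus had the smallest change in MOLM-13 and the widest in NB4 cells. Several neighbours in these orders lay within 1 SE of each other, KIF21B and CYFIP2 in MOLM-13 cells and RGS16 and CYFIP2 in NB4 cells among them. The change in NB4 minus that in MOLM-13 cells ranged from 2.29 ± 0.16 for RGS16 to 3.04 ± 0.19 for SEL1L3, with CYFIP2 at 2.50 ± 0.20, KIF21B at 2.77 ± 0.20 and TREML2 at 2.91 ± 0.21.

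Across all genes, a change was called at p below 0.01 and an absolute log2 fold change of at least 0.5. In MOLM-13 cells 9.04% of the 9710 tested genes were called lower and 9.30% higher. In NB4 cells 10.7% of the 9853 tested genes were called lower and 18.6% higher. Both calls, lower in MOLM-13 and higher in NB4, were met by 68 of the 8849 genes tested in both lines, or 0.768%, and all 5 genes were among them by choice. The reverse pair of calls was met by 15 genes, or 0.170%. Treatments that did not overlap, with FP54 below DMSO in MOLM-13 and above it in NB4, were found for 259 genes, or 2.93%. The change differed between the lines at an adjusted p below 0.05 for 10.5% of the genes in favour of NB4 and for 3.75% in the other direction. After quantile normalization these became 858 and 813 genes, and the NB4 calls became 1280 higher and 1363 lower in place of 1834 and 1050, as the median log2 fold change of all genes in NB4 cells moved by -0.10 from 0.07.

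Of the 68 genes, 13 were in the ATF4 list, 3 were in the p53 list and 52 were in neither. Their median log2 fold change was -0.87 in MOLM-13 and 0.88 in NB4 cells, against 0.07 in NB4 cells over all genes. Ordered by the difference between the lines, SEL1L3 came 11th, TREML2 12th, KIF21B 13th, CYFIP2 16th and RGS16 19th. The difference ranged over the 68 genes from 1.08 to 6.97 on the log2 scale, and the upper end was GDF15, a secreted factor of the stress response. GDF15 was listed at 0 in NB4 cells with DMSO, so the size of its difference depends on the 0.1 added to RPKM. Above SEL1L3 stood 6 genes of the ATF4 list and 4 that it does not hold, which were ADM2, ATF5, S100P and BATF3. Absence from the list does not place a gene outside the stress response.

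**Figure D2:**
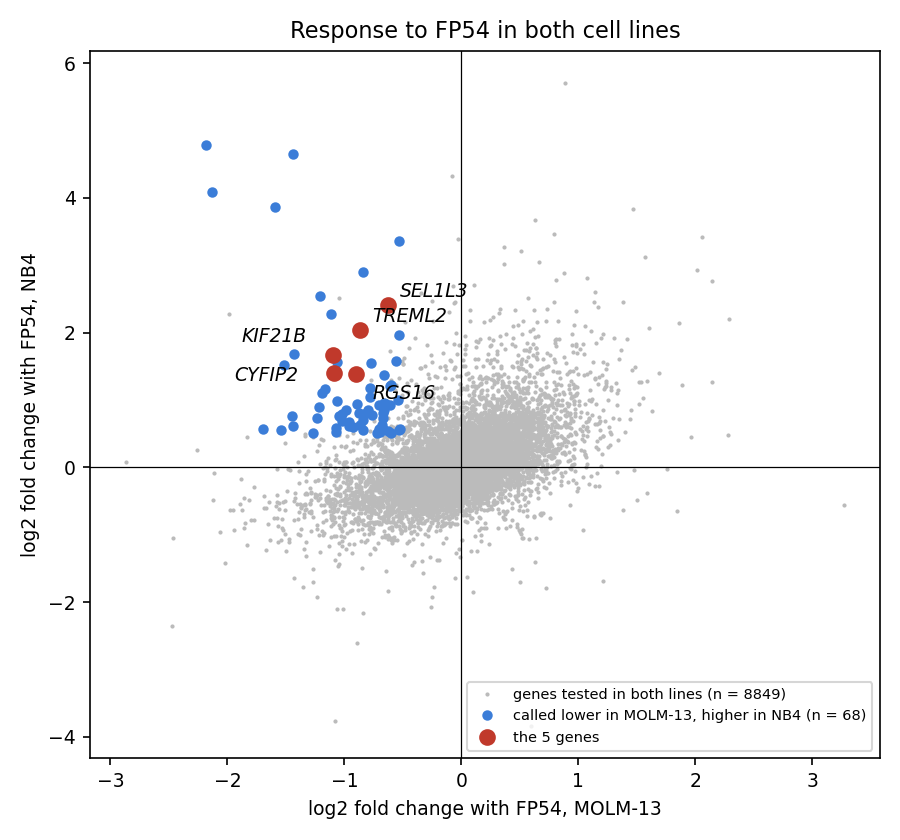
Log2 fold change with FP54 in MOLM-13 (horizontal) and NB4 (vertical) cells for the 8849 genes tested in both lines, each point a gene. Blue points are the 68 genes called lower in MOLM-13 and higher in NB4, and red points the 5 genes, which sit in the upper left between -1.10 and -0.63 on the horizontal and 1.39 and 2.41 on the vertical axis.

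The order of the lines depended on the treatment. With DMSO all 5 means were higher in MOLM-13 cells, by 19.2-fold for SEL1L3, 5.55-fold for RGS16, 1.95-fold for KIF21B, 1.36-fold for TREML2 and 1.21-fold for CYFIP2. With FP54 KIF21B was 3.54-fold higher in NB4 cells, TREML2 5.88-fold and CYFIP2 5.01-fold. RGS16 remained 1.12-fold and SEL1L3 2.10-fold higher in MOLM-13 cells. The tables of the lines were normalized separately, so these ratios are descriptions of levels.

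**Figure D3:**
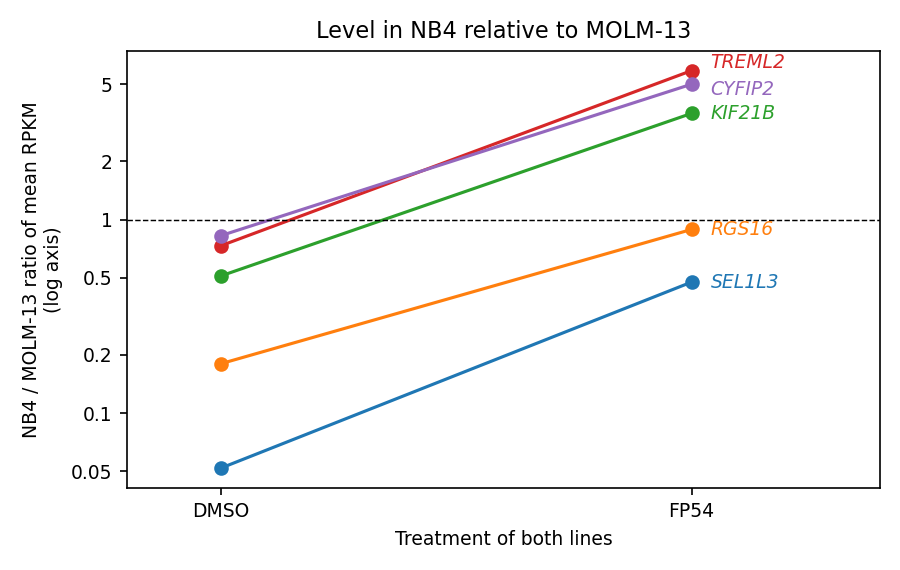
Ratio of the mean RPKM in NB4 to that in MOLM-13 cells (log axis) with DMSO and with FP54 for the 5 genes, with a dashed line at a ratio of 1. All 5 lie below the line with DMSO, and KIF21B, TREML2 and CYFIP2 lie above it with FP54, at 3.54, 5.88 and 5.01.

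None of the closest relatives was called lower in MOLM-13 and higher in NB4 cells. CYFIP1, the other CYFIP subunit of WAVE complexes, was at 6.01 ± 0.508 RPKM with DMSO and 7.75 ± 1.26 RPKM with FP54 in MOLM-13 cells, and at 7.92 ± 0.857 and 7.32 ± 0.207 RPKM in NB4 cells. Its log2 fold changes were 0.35 ± 0.16 (SE, adjusted p = 0.151) and -0.11 ± 0.10 (adjusted p = 0.408). SEL1L rose in NB4 cells from 8.13 ± 1.77 to 16.4 ± 1.33 RPKM and was at 13.1 ± 1.68 and 14.9 ± 2.62 RPKM in MOLM-13 cells. The other relatives were too low to test, with KIF21A averaging 0.0923 to 0.246 RPKM over the groups, TREML1 at most 0.0671 RPKM and RGS4 listed at 0 in every library.

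The SEL1L and HRD1 list held 23 genes beside SEL1L3, of which 21 were tested in each line. Of these, 1 was called lower and 1 higher in MOLM-13 cells, and 2 lower and 3 higher in NB4 cells. The shares of all tested genes called lower and higher were 9.04% and 9.30% in MOLM-13 cells, and 10.7% and 18.6% in NB4 cells. UBE2G2, a ubiquitin-conjugating enzyme of this pathway, fell by 0.89 (SE 0.23, adjusted p = 0.0250) and HERPUD2 rose by 0.58 (SE 0.14, adjusted p = 0.0195) in MOLM-13 cells. In NB4 cells the risers were EDEM1, a lectin-like factor that hands over misfolded glycoproteins, by 1.24 (SE 0.11, adjusted p = 8.56e-06), SEL1L by 1.02 (SE 0.15, adjusted p = 0.000296) and HERPUD1, a scaffold of the HRD1 ligase, by 0.96 (SE 0.10, adjusted p = 2.26e-05). AUP1 fell by 0.56 (SE 0.11, adjusted p = 0.00211), and UFD1 was the other gene called lower. The change differed between the lines for EDEM1 (1.25, adjusted p = 0.000526), UBE2G2 (1.02, adjusted p = 0.0184), SEL1L (0.85, adjusted p = 0.0295) and HERPUD1 (0.84, adjusted p = 0.0162), each in favour of NB4. The list's median log2 fold change was -0.012 in MOLM-13 and 0.13 in NB4 cells, against 0.07 over all genes in NB4. No other gene of the list was lower in MOLM-13 and higher in NB4 by both calls. Single libraries decided several of these calls. UBE2G2 in MOLM-13 missed the cutoff without DMSO replicate 3 (adjusted p = 0.102) or FP54 replicate 1 (adjusted p = 0.106), and the SEL1L line difference missed it in 6 of 12 fits with a library left out (adjusted p from 0.0572 to 0.0778). The UBE2G2 line difference missed it without FP54 replicate 2 of NB4 (adjusted p = 0.0506), and AUP1 fell by 0.42 without DMSO replicate 2. UFD1, at -0.50 in NB4 cells, fell short of the fold limit in 3 of 6 fits, without DMSO replicate 2 (-0.46), DMSO replicate 3 (-0.48) or FP54 replicate 2 (-0.48).

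The RGS family, other GTPase-activating proteins of G protein signalling, had 7 of 20 genes tested in each line. In MOLM-13 cells RGS2 rose by 1.06 (SE 0.17, adjusted p = 0.00454), RGS12 by 0.80 (SE 0.18, adjusted p = 0.0152) and RGS14 by 0.66 (SE 0.16, adjusted p = 0.0207), whereas RGS1 fell by 0.70 (SE 0.16, adjusted p = 0.0171). In NB4 cells RGS20 rose by 1.06 (SE 0.14, adjusted p = 0.000129), RGS2 by 0.94 (SE 0.18, adjusted p = 0.00175) and RGS10 by 0.50 (SE 0.09, adjusted p = 0.000841), and none fell. Of the 6 genes tested in both lines none passed the limma test of the line difference, and 2 had an unadjusted p below 0.05, both in favour of MOLM-13, where limma-voom called 1. The median log2 fold change of the tested RGS genes was 0.45 in MOLM-13 and 0.25 in NB4 cells. Of all tested genes, 9.04% were called lower and 9.30% higher in MOLM-13 cells, and 10.7% and 18.6% in NB4 cells. RGS14 missed the cutoff without DMSO replicate 3 (adjusted p = 0.101) or FP54 replicate 1 (adjusted p = 0.0935) of MOLM-13, and RGS10 fell short of the fold limit without DMSO replicate 1 (0.46), DMSO replicate 3 (0.48) or FP54 replicate 1 (0.47) of NB4.

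RGS16 acts on G alpha subunits of the Gi and Gq classes. The list of G alpha subunits was not limited to these classes, and 8 of 12 were tested. GNA15, a Gq-class subunit of blood cells, fell in MOLM-13 cells by 0.67 (SE 0.12, adjusted p = 0.00738), from 164 ± 5.64 to 103 ± 3.26 RPKM, and no subunit was called in NB4 cells by limma or limma-voom, with 3 at an unadjusted p below 0.05. The change was higher in NB4 than in MOLM-13 cells for GNA12 (0.86, adjusted p = 0.00621), GNA15 (0.84, adjusted p = 0.00196) and GNA11 (0.65, adjusted p = 0.0367), and lower for GNAI2 (-0.49, adjusted p = 0.0418). GNA11 missed the threshold in 9 of 12 fits with a library left out (adjusted p from 0.0505 to 0.110) and GNAI2 in 10 of 12 (adjusted p from 0.0512 to 0.104).

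Of 42 other kinesins, 25 were tested in MOLM-13 and 28 in NB4 cells. KIF2A, a microtubule-depolymerizing kinesin, fell in MOLM-13 cells by 0.79 (SE 0.20, adjusted p = 0.0236), and KIFC2 rose by 0.52 (SE 0.15, adjusted p = 0.0334). In NB4 cells 3 of the 28 kinesins fell and 5 rose, where 10.7% of all tested genes were called lower and 18.6% higher. KIF13A, a carrier of endosomes, rose there by 1.78 (SE 0.17, adjusted p = 1.51e-05), KIFC2 by 1.29 (SE 0.17, adjusted p = 0.000156) and KIF13B by 1.03 (SE 0.12, adjusted p = 5.28e-05). KIF20A, a motor of cell division, fell by 1.09 (SE 0.10, adjusted p = 1.05e-05), from 22.7 ± 1.47 to 10.6 ± 0.972 RPKM. The change differed between the lines for KIF20A (-1.26, adjusted p = 0.00261), KIF3C (1.00, adjusted p = 0.00547), KIF13B (0.88, adjusted p = 0.00885) and KIFC2 (0.77, adjusted p = 0.0407). The medians were -0.10 in MOLM-13 and 0.13 in NB4 cells. KIF2A missed the cutoff in 3 of 6 fits with a library left out, which were DMSO replicate 1 (adjusted p = 0.0921), DMSO replicate 3 (adjusted p = 0.0990) and FP54 replicate 1 (adjusted p = 0.102), and KIFC2 missed it in 4 of 6 in MOLM-13 cells (log2 fold change from 0.44 to 0.53) and in 9 of 12 for the line difference (adjusted p from 0.0543 to 0.103). Of the 8 NB4 calls, 3 did not hold in every such fit. KIF1B missed the limits in 4 of 6 and KIF27 in 3 of 6, DMSO replicate 2 among the libraries left out for each (0.34 and 0.44), and KIF22 was at -0.47 without DMSO replicate 2.

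The TREM family and its adaptors counted 8 genes beside TREML2, with 5 tested in MOLM-13 and 4 in NB4 cells. TYROBP, the DAP12 adaptor through which some TREM receptors signal, rose in both lines, by 0.94 (SE 0.15, adjusted p = 0.00483) in MOLM-13 and 0.70 (SE 0.16, adjusted p = 0.00367) in NB4 cells. Whether TREML2 uses this adaptor was not tested. HCST, the DAP10 adaptor, rose by 0.92 (SE 0.23, adjusted p = 0.0219) and 1.23 (SE 0.12, adjusted p = 2.26e-05). TREM1, an activating receptor of neutrophils and monocytes, rose in NB4 cells from 1.15 ± 0.150 to 4.28 ± 0.175 RPKM, a log2 fold change of 1.82 (SE 0.13, adjusted p = 2.29e-06), and was at 3.77 ± 0.545 and 3.72 ± 0.497 RPKM in MOLM-13 cells (log2 fold change -0.018 ± 0.18). The TREM1 change differed between the lines by 1.83 (adjusted p = 5.41e-05), and that of SYK, the kinase downstream of TYROBP, by -0.47 (adjusted p = 0.0490). TREM1 was thus higher with FP54 in NB4 cells, as TREML2 was, and was not called in MOLM-13 cells. HCST in MOLM-13 missed the cutoff without FP54 replicate 1 (adjusted p = 0.103) or FP54 replicate 3 (adjusted p = 0.0571), and the SYK line difference missed it in 10 of 12 fits (adjusted p from 0.0560 to 0.136).

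In the WAVE complex, 6 of 10 genes beside CYFIP2 were tested in MOLM-13 and 8 in NB4 cells. WASF1, a subunit that activates ARP2/3, fell in MOLM-13 cells by 0.89 (SE 0.19, adjusted p = 0.0132), from 8.87 ± 1.36 to 4.78 ± 0.951 RPKM. In NB4 cells it was at 4.44 ± 0.563 and 4.51 ± 0.0249 RPKM. Its change differed between the lines by 0.92 (adjusted p = 0.0152). WASF2, a relative of WASF1 in the same list, was the more abundant and was called in neither line. It was at 47.4 ± 6.20 RPKM with DMSO and 54.7 ± 4.66 RPKM with FP54 in MOLM-13 cells, and at 29.7 ± 2.84 and 37.8 ± 0.566 RPKM in NB4 cells. NCKAP1L, the blood-cell form of the NAP1 subunit, rose in MOLM-13 cells by 0.58 (SE 0.14, adjusted p = 0.0193) and ABI2, an adaptor subunit, in NB4 cells by 0.56 (SE 0.12, adjusted p = 0.00283). NCKAP1L missed the cutoff without DMSO replicate 3 (adjusted p = 0.105), and ABI2 was at 0.46 without DMSO replicate 2.

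All 12 RAC GTPases and ARP2/3 subunits were tested. RAC3 fell in MOLM-13 cells by 1.23 (SE 0.22, adjusted p = 0.00717), and so did ARPC5L, an ARP2/3 subunit, by 1.09 (SE 0.19, adjusted p = 0.00666). In NB4 cells RAC2, the blood-cell RAC, rose by 0.83 (SE 0.09, adjusted p = 4.23e-05), and RAC1 fell by 0.50 (SE 0.08, adjusted p = 0.000669). The line difference was 0.83 for ARPC5L (adjusted p = 0.0277) and -0.64 for RAC1 (adjusted p = 0.0101). ARPC5L missed the threshold for the line difference in 8 of 12 fits with a library left out (adjusted p from 0.0516 to 0.0730), and RAC1 in NB4 fell short of the fold limit without DMSO replicate 2 (-0.45), FP54 replicate 2 (-0.48) or FP54 replicate 3 (-0.49).

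Over these 7 lists together, 17.9% of 84 tested partner genes were called in MOLM-13 cells, 7 lower and 8 higher, and 25.0% of 88 in NB4 cells, 6 lower and 16 higher. Over all genes the shares were 18.3% and 29.3%. Of the 82 partner genes tested in both lines, 0 were lower in MOLM-13 and higher in NB4 by both calls of limma, as of limma-voom, and 2, GNA12 and KIF3C, were so at an unadjusted p below 0.05. The share of all genes with this pair of calls was 0.768%, so a count of 0 among 82 does not set the partner genes apart.

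**Figure D4:**
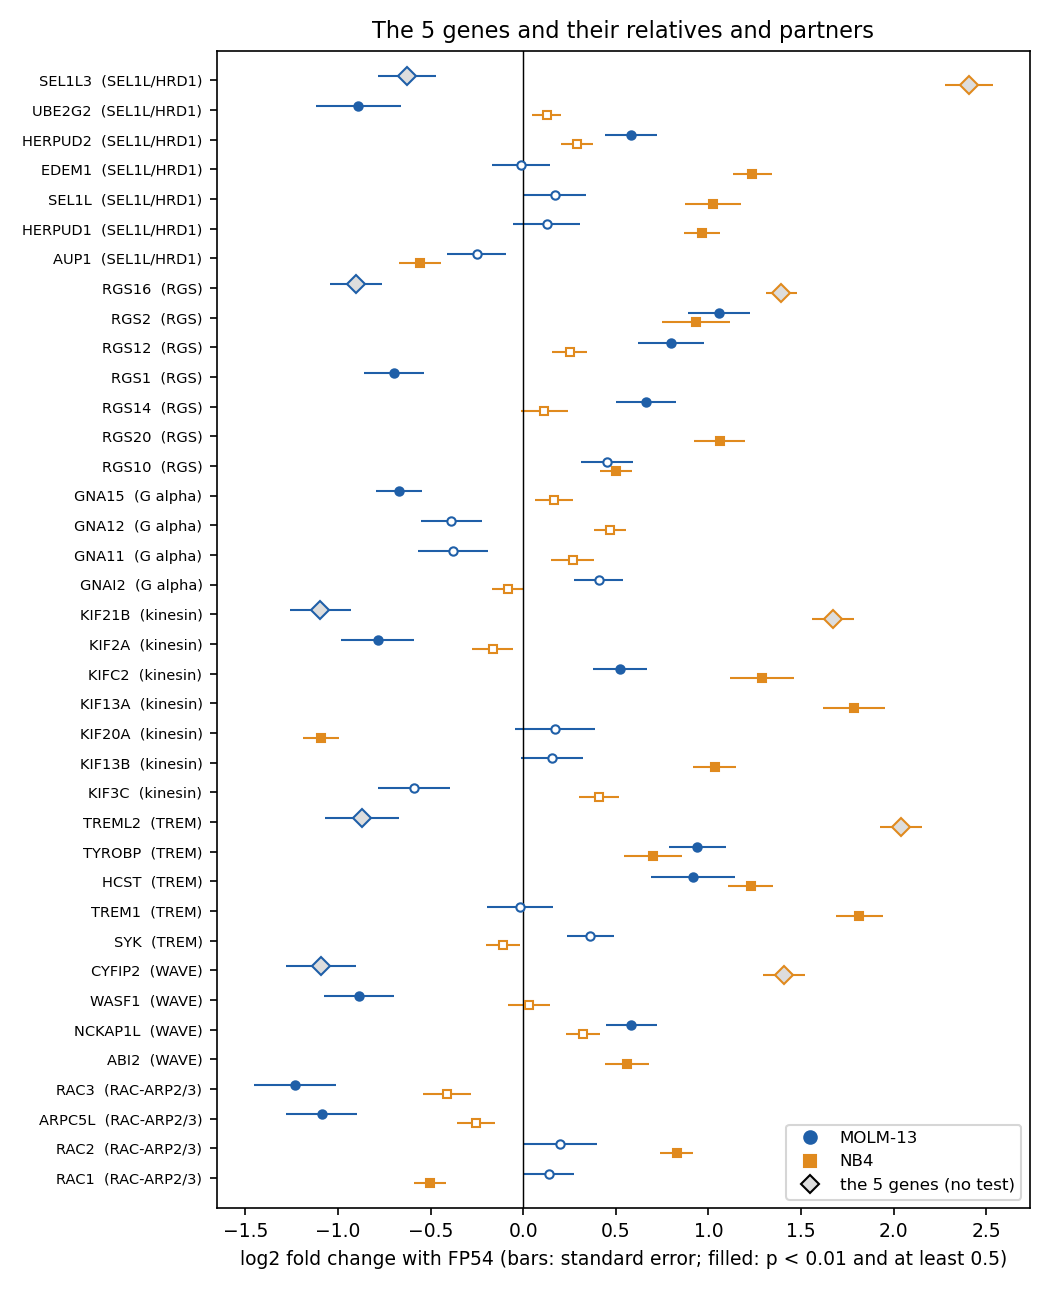
Log2 fold change with FP54 (horizontal axis, bars SE) of the 5 genes (grey diamonds, no test) and of their relatives and partners named in the text, in MOLM-13 (blue) and NB4 (orange). Filled circles and squares passed p below 0.01 with a change of at least 0.5. The diamonds lie on opposite sides of 0, and no other gene has filled symbols on both sides.

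The p53 and ATF4 lists, to which none of the 5 genes belonged, are given for comparison. They are not separate, since SESN2 is in both. Of the p53 targets, 7 of 23 tested were lower and 0 higher in MOLM-13 cells (6 and 0 by limma-voom, and 10 and 2 at an unadjusted p below 0.05 by limma), and 2 lower and 9 higher of 19 in NB4 cells. Over all genes 9.04% were called lower and 9.30% higher in MOLM-13 cells, and 10.7% and 18.6% in NB4 cells. CDKN1A, the cell-cycle inhibitor p21, fell by 0.53 (SE 0.14, adjusted p = 0.0295) and rose by 1.97 (SE 0.16, adjusted p = 5.36e-06), and its call in MOLM-13 was lost in 5 of 6 fits with a library left out (log2 fold change from -0.57 to -0.43). Of the other 6 MOLM-13 calls in the p53 list, PLK3 was lost in 4 of 6 such fits, MDM2 in 3 and PHLDA3 in 1. AEN, GADD45A and TRIAP1 passed in all 6. Of the ATF4 targets, 16 of 32 were lower and 1 higher in MOLM-13 cells, and 1 lower and 26 higher of 31 in NB4 cells, with a median log2 fold change of -0.79 and 1.5. These lists were assembled with earlier results of these data known and are no independent evidence of direction.

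The genes whose levels followed each of the 5 most closely were found by Pearson's r of log2 levels over the 12 libraries, after removing the mean of each line. The libraries of a treatment share its effect, so any gene with the opposite response has a high r, and the values are descriptions. RGS16 was closest to KIF21B (r = 0.988), followed by the stress-response genes TRIB3 (0.988) and STC2 (0.987). KIF21B was closest to RGS16, then to STC2 (0.987) and ITPR3, a calcium channel of the endoplasmic reticulum (0.975). SEL1L3 was closest to INHBE (0.992), a secreted stress factor, PLXNA1 (0.990) and ADM2 (0.987). TREML2 was closest to DNHD1 (0.991), PCED1B (0.979) and GDF15 (0.975), and CYFIP2 to ATF3 (0.973), KIF21B (0.968) and ITPR3 (0.967). Of these genes INHBE, TRIB3, STC2, GDF15 and ATF3 were in the ATF4 list. The levels of GDF15 make the pattern plain, with 10.0 RPKM falling to 2.20 RPKM in MOLM-13 cells and a listing at 0 in NB4 cells with DMSO against 2.65 RPKM with FP54.

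Neighbouring genes were examined as 2 protein-coding genes on each side, 20 in all. They were below 1 RPKM in every library for 12 of the 20. NPL, 185 kb from RGS16, rose in NB4 cells by 1.31 (SE 0.14, adjusted p = 3.49e-05). In MOLM-13 cells, where RGS16 was lower with FP54, NPL was at 0.53 (SE 0.17, limma adjusted p = 0.0596) and was not called. TREM1, 66.8 kb from TREML2, rose in NB4 cells by 1.82, as given above, and TREM2, 26.6 kb away on the other side, was at -0.0040 ± 0.25 in MOLM-13 cells and below 1 RPKM in NB4 cells.

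Background reads differed between the treatments of NB4 cells. The mean level of 416 olfactory receptor genes, which blood cells are not known to use, was 0.00168 to 0.00372 RPKM in DMSO and 0.0496 to 0.0549 RPKM in FP54 libraries of NB4 cells, and 0.00386 to 0.00831 RPKM in MOLM-13 libraries. The FP54 level of SEL1L3 in NB4 cells, 4.14 RPKM at its lowest, was far above that. Subtracting this level from each library left all 5 genes lower in MOLM-13 and higher in NB4. It could not do otherwise, since their levels lay far above the level subtracted.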

How the data were processed

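RNA with poly(A) tails was made into libraries with a stranded kit and sequenced as single reads. According to their methods, the authors trimmed the reads (cutadapt 4.8), removed duplicates, aligned to hg38 (STAR 2.7.11b), counted on protein-coding GENCODE genes (featureCounts 2.0.3) and deposited RPKM, one table per line. The length and library total behind the RPKM, and the strand setting of the counting, are not given in the sources used here. That the NB4 table holds NB4 cells rests on its name.

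The study's count test does not apply to RPKM, so log2(RPKM + 0.1) was fitted with limma 3.58.1 (R 4.3.3; eBayes with trend). Genes entered at a mean of at least 1 RPKM over the 6 libraries of a line. This scale understates changes of low genes. The cutoff for calls was that of the study. Line differences were an interaction over 12 libraries, called at a Benjamini-Hochberg adjusted p below 0.05. The smallest p of an exact permutation test of 3 libraries against 3 is 0.1.

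Reads were recovered from RPKM with GENCODE exon lengths, and 98.3 to 99.0% of values up to 30 reads were whole within 0.02. Libraries held 5836560 to 22349822 recovered reads. Other steps used Python 3.11.15, pandas 2.3.3, numpy 2.4.6 and matplotlib 3.10.9. Fits were tested on simulated data.

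The 5 genes and all lists were chosen with earlier results of these data known. Named by rule were the 5 genes, up to 4 called genes per partner list and comparison, the closest relatives, the 2 nearest genes on each side (1 of which is not reported here), the 3 genes most alike in pattern, and FTO. UFD1, WASF2, ADM2, ATF5, S100P and BATF3 were named after their values were seen, as were the marker genes in the closing section. Relatives come from general knowledge, since no protein sequences were used here. Alternatives were other pseudocounts (1, 0.01), other filters (none, 5 RPKM), median-ratio scaling, quantile normalization, a replicate block, eBayes without trend, an adjusted p cutoff and leaving out each library. Limma-voom on recovered reads and subtraction of the olfactory receptor level were added after seeing the data.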

Additional observations from a re-analysis of the deposited data

Results flagged for a closer look

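For each of the 5 genes, every MOLM-13 library with FP54 lay below and every NB4 library with FP54 lay above the DMSO libraries of its line. The difference of the log2 fold changes, NB4 minus MOLM-13, was 3.04 for SEL1L3, 2.29 for RGS16, 2.77 for KIF21B, 2.91 for TREML2 and 2.50 for CYFIP2. These differences were not tested, because they chose the genes.

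Among relatives, partners and neighbours, the change with FP54 differed between the lines for some genes by the limma interaction (adjusted p below 0.05). They included 17 of 82 partner genes tested in both lines, or 20.7%, against 14.2% of all 8849 genes. With a library left out, SEL1L, GNA11, GNAI2, KIFC2, SYK and ARPC5L missed this threshold in at least 6 of 12 fits, and UBE2G2 in 1. In the SEL1L and HRD1 list the differences were 1.25 for EDEM1, 1.02 for UBE2G2, 0.85 for SEL1L and 0.84 for HERPUD1. Among G alpha subunits they were 0.86 for GNA12, 0.84 for GNA15, 0.65 for GNA11 and -0.49 for GNAI2. The kinesins gave -1.26 for KIF20A, 1.00 for KIF3C, 0.88 for KIF13B and 0.77 for KIFC2. TREM1 differed by 1.83 and SYK by -0.47, WASF1 by 0.92, ARPC5L by 0.83 and RAC1 by -0.64. NPL, a neighbour of RGS16, differed by 0.78. In the p53 list the widest were SESN2 at 2.63, CDKN1A at 2.50, GADD45A at 2.32 and TNFRSF10B at 1.58, and in the ATF4 list GDF15 at 6.97, STC2 at 6.22, INHBE at 6.09 and ALDH1L2 at 3.74. SESN2 was in the ATF4 list as well.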

How the results depend on the processing

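All 5 genes remained lower in MOLM-13 and higher in NB4 in every setting in which they were tested. The genes were chosen on these values, and their treatments did not overlap in either line. Leaving out a library therefore could not change the direction, and this result is no support for it. With a filter at 5 RPKM only 2 genes, RGS16 and KIF21B, were tested in both lines. A pseudocount of 1 put SEL1L3 in NB4 at 1.62 in place of 2.41, and for RGS16 in NB4 the ends were 1.33 with median-ratio scaling and 1.497 with quantile normalization. Calls numbered 1781 in MOLM-13 and 2884 in NB4, with 1258 line differences and 68 genes called lower in MOLM-13 and higher in NB4. With the filter at 5 these became 1069, 1627, 633 and 26, and the partner calls in NB4 11 and partner line differences 9, since fewer genes were tested. Without a filter NB4 gave 6059 calls, with 3964 line differences, 157 opposite genes, 40 partner calls in NB4 and 40 partner line differences. With one library left out, MOLM-13 calls ranged from 1043 (without FP54 replicate 1) to 2149, line differences from 807 to 1494, opposite genes from 45 (without DMSO replicate 3 of MOLM-13) to 76, and partner line differences from 10 to 19, and NB4 calls from 2689 to 3267. The cause was not tested. The replicate block gave 1697, 2912 and 899 calls and 62 opposite genes, with 12 partner line differences in place of 17. Deviations of same-numbered libraries from their group means correlated at only -0.262 to 0.123. No MOLM-13 library and not every NB4 library correlated best with its own number. In MOLM-13 the best matches were DMSO replicate 1 with FP54 replicate 3 (r = 0.593), 2 with 1 (0.494) and 3 with 2 (0.475). What these libraries share was not tested, and the fits did not use it. Limma-voom gave 1963, 2931 and 1330. Of list-gene values in settings other than leave-outs, 55 no longer passed, 1515 kept their side and none reversed. The shallowest library, at 5836560 reads, limits TREML2 and CYFIP2 in MOLM-13.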

Other observations

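The promyelocyte granule genes, which store enzymes in neutrophil precursors, were called lower for 4 of 4 tested in NB4 and 2 of 5 in MOLM-13 cells, where 10.7% and 9.04% of all tested genes were called lower. In NB4 cells CTSG fell by 2.60 on the log2 scale (SE 0.11, adjusted p = 1.07e-07), PRTN3 by 1.93 (SE 0.10, adjusted p = 3.17e-07) and MPO by 0.96 (SE 0.09, adjusted p = 1.28e-05) by limma. AZU1 fell by 0.52 (SE 0.11, adjusted p = 0.00351) and fell short of the fold limit without DMSO replicate 2 (-0.40) or FP54 replicate 3 (-0.498). In MOLM-13 cells MPO fell by 2.06 (SE 0.19, adjusted p = 0.000985) and CTSG by 0.89 (SE 0.17, adjusted p = 0.00807). CD68, a lysosomal protein of macrophages, rose in both lines, by 1.11 (SE 0.15, adjusted p = 0.00257) in MOLM-13 and 0.99 (SE 0.12, adjusted p = 7.17e-05) in NB4 cells. It was the only 1 of the 5 myeloid markers called in either line. The log2 fold change was below 0 for 3 of the 5 in NB4 cells and for 1 in MOLM-13 cells.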
